A study of Mus musculus with 6 samples.

Results

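Glutathione transferases, glutathione peroxidases and gamma-glutamyl transferases were followed in mouse liver after long exposure to cadmium. Members were the genes whose symbol is Gst followed by a class letter and a number, or Mgst, Gpx or Ggt followed by a number, which gave 36 genes of 34352 with a symbol. The set holds 4 alpha, 7 mu, 3 pi, 3 theta, 1 zeta, 2 omega and 1 kappa transferase genes, 3 microsomal transferase genes, 8 peroxidase genes and 4 gamma-glutamyl transferase genes. The rule used names only and no measured value.

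Both groups were wild-type C57BL/6 mice, 6 to 8 weeks old when housed and labelled male. The cadmium group was gavaged with CdCl2 at 20 mg per kg each day to day 90, and the control group carries the dose 0. RNA of the liver was fragmented and exposed to an antibody against N6-methyladenosine, and the 3 libraries of each group analysed here are the fraction described as unbound. A lower level of a transcript and a larger bound share of it cannot be told apart in such a fraction. The labels give 6 mice per group and do not tie them to the 3 libraries, and a p-value here therefore reflects library-to-library spread that may be technical. In bulk liver, fewer cells of a type and less RNA per cell also cannot be told apart.

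Glutathione is the tripeptide thiol that liver cells hold at high concentration, and cadmium ions bind its sulfur. Cytosolic transferases join glutathione to electrophiles, peroxidases spend it to reduce hydrogen peroxide or lipid peroxides, and gamma-glutamyl transferases cleave it outside the cell. Many transferase genes are known targets of NRF2, a stress-activated factor that binds DNA as a dimer with a small MAF protein.

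Library totals ran from 42115960 to 68587128 reads recovered from the deposited log2 values. The liver label matched the hepatocyte markers, with Alb at 10130 to 17899 FPKM and 1 of 8 markers called, Fgb, higher in cadmium (adjusted p = 0.0459, with the replicate block 0.110). Levels are in FPKM, which correct the fragment number for gene length and library total, so that genes can be set side by side. The sex label did not match: Xist, expressed from the inactive X chromosome of females, stood at 19.7 to 35.5 FPKM in all 6 libraries, and the Y-linked Ddx3y and Eif2s3y were listed at 0 in each. Both groups share that pattern, and pi transferase is known to be more abundant in male than in female mouse liver. Marker sums overlapped between groups, at 341 to 664 and 489 to 539 FPKM for 10 female-predominant genes. For 10 male-predominant genes they were 50.7 to 86.4 and 64.0 to 76.9, with 0 of 5 tested called. Of the female-predominant genes 2 were called higher and 0 lower, and without the 2 libraries named next 3 higher and 2 lower. The 2 called were A1bg, at 0.925 ± 0.422 FPKM in control and 25.0 ± 11.2 in cadmium (limma, adjusted p = 0.00884), and Sult3a1. Sult3a1 was at 7.78 ± 2.38 and 34.7 ± 7.92 FPKM (adjusted p = 0.00843). Both stayed called with the replicate block, in the deposited log2 values and without those 2 libraries. Control replicate 1 and cadmium replicate 2 stood apart from the rest, with mitochondrial rRNA at 0.265% and 0.277% of reads against 0.782% to 1.18%. In control replicate 1 the 10 genes with most reads took 44.6%, against 33.3% to 35.9% in every other library. Protein-coding genes took 55.5% of its reads, against 64.0% to 68.1%. Control replicate 1 also had Sult2a1, a female-predominant sulfotransferase, at 5.61 FPKM against 122 and 172 in the other controls. The male-predominant Slco1a1 was at 4.62 FPKM in it against 0.399 and 0.190. Not all such genes went that way, since female-predominant Cyp2a4 was at 174 FPKM in it against 134 and 121. Without the 2 libraries together the Fgb call was lost (adjusted p = 0.0752). Calls of members, pathway lists and cell type lists that differed without these 2 libraries are given beside the results.

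Of the 36 members, 27 had FPKM of at least 1 in at least 3 libraries and were tested within a fit of all 9908 such genes (limma on log2(FPKM + 1), adjusted p under 0.05). Gstp1 was the only member called, and it fell; 0 members were called higher. Over all tested genes 9.68% were called, 1.82% lower and 7.86% higher, so the single call lies near the background and is a result about Gstp1, not about the set. Calls over all genes numbered 779 higher and 180 lower, a split that was 347 and 298 with quantile normalization, 510 and 233 with upper quartile scaling and 381 and 493 in the deposited log2 values. An unadjusted p under 0.05 was found for 6 of the 27 members, where 27% of all tested genes had one. Groups did not overlap for 4 members that were lower in cadmium (Gstp1, Gstp2, Gsta3 and Gstt2), 14.8% of the 27 against 7.24% of all tested genes, and for 2 that were higher (Gstp3 and Gstm7), 7.41% against 26.4%. The groups overlapped for the other 21 members, while 33.6% of all tested genes showed no overlap. The median log2 difference of the 27 was 0.13, beside 0.09 for all 9908 genes. In the deposited log2 values these medians were -0.05 and -0.06, close to each other under either scaling.

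**Figure D1:**
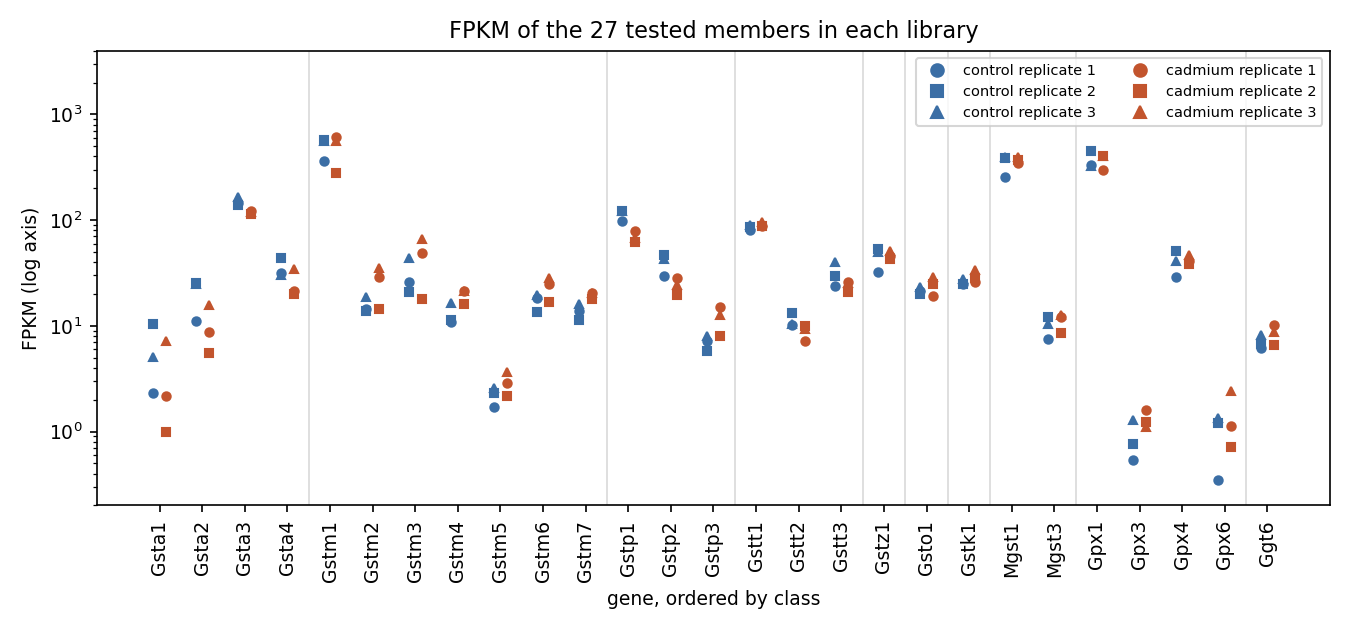
FPKM on a log axis of the 27 tested members in each of the 6 libraries, ordered by class; blue symbols are control and orange are cadmium, with 1 symbol shape per replicate number. Gstm1, Mgst1 and Gpx1 lie highest, and the alpha and pi genes show orange symbols mostly below blue, apart from Gstp3.

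**Figure D2:**
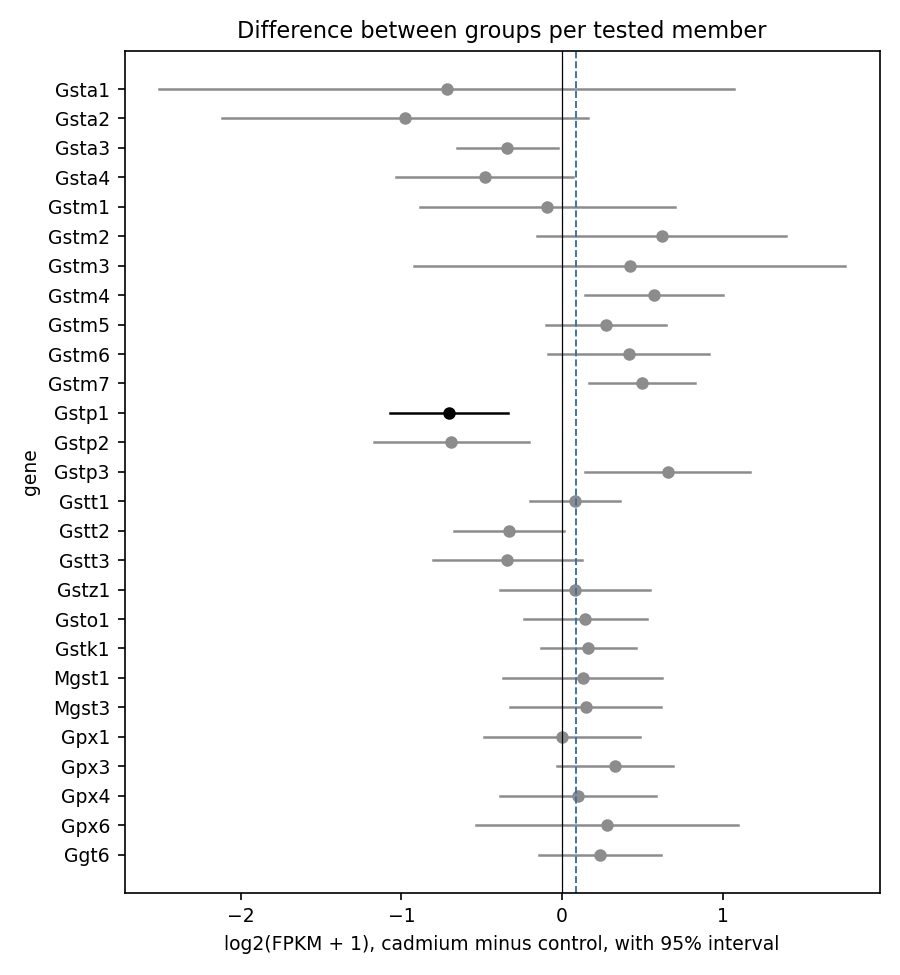
Difference in log2(FPKM + 1), cadmium minus control, with its 95% interval for each tested member; the dashed line is the median of all tested genes at 0.09. Gstp1, in black, is the only member whose adjusted p was under 0.05.

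Levels of the members spanned a wide range. The most abundant were Gstm1 at 498 ± 116 FPKM in control (SD, n = 3), Gpx1 at 369 ± 71.1 and Mgst1 at 347 ± 80.8. Gstm1 was above the other two in each control library, while Gpx1 and Mgst1 differed by less than their spread. Gsta3 followed at 151 ± 13.7 and Gstp1 at 114 ± 14.4 FPKM. All 36 members together held 1.04% to 1.21% of the FPKM of protein-coding genes in control libraries and 0.939% to 1.12% in cadmium libraries, which overlap. The 24 transferases summed to 1541 ± 271 FPKM in control and 1491 ± 264 in cadmium.

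The pi class held the only called member, and its members differed in direction. Gstp1 fell to 69.6 ± 9.11 FPKM from 114 ± 14.4, Gstp2 was at 24.1 ± 4.25 against 39.8 ± 9.34, and Gstp3 at 11.9 ± 3.54 against 6.98 ± 1.07. The 3 genes lie side by side on the minus strand of chromosome 19 (mm10, GENCODE M21): Gstp1 at 4035407 to 4037985, Gstp2 at 4040285 to 4046023 and Gstp3 at 4057477 to 4059569. The 250 bases before each RefSeq start site (GRCm38.p6) are shown because the Gstp1 and Gstp2 values lay below control in every cadmium library and those of their neighbour Gstp3 above. The windows are chr19:4037913-4038162, chr19:4042222-4042471 and chr19:4059448-4059697, all on the minus strand, written 5′ to 3′. Capitals mark TGAGTCA, a core that AP-1 and related factors are known to bind.
Gstp1: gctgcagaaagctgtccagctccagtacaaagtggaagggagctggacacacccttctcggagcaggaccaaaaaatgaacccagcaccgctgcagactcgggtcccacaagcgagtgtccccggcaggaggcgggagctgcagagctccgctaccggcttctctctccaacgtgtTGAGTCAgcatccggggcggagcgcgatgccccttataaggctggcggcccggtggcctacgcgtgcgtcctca
Gstp2: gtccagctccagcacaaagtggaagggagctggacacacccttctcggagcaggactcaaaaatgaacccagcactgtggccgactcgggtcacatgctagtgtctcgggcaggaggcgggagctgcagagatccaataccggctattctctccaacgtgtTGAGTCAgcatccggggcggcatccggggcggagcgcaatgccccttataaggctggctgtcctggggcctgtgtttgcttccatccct
Gstp3: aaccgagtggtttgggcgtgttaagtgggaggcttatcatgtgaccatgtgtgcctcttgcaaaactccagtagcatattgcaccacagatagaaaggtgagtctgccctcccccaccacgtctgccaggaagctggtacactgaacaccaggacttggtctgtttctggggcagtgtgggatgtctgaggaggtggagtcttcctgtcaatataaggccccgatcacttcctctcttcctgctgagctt
Gstp1 and Gstp2 windows were identical at 208 of 265 aligned columns (78.5%), and Gstp3 matched them at 50.7% and 51.9%. Windows of unrelated genes were not aligned, so the Gstp3 percentages have no baseline and do not show likeness. TGAGTCA, searched on both strands, begins 74 bases before the Gstp1 start and 89 bases before the Gstp2 start, and its letters do not occur in the Gstp3 window. Among all 32851 promoter windows of RefSeq, 4.46% hold it in the 250 bases before the start. Among the members with a window, Gstm5 and Mgst2 hold it too. A match describes letters and does not show a bound site.

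Gstp1, the main pi transferase of the liver cytosol, measured 97.2, 122 and 123 FPKM in the control libraries, in replicate order, and 79.7, 62.0 and 67.2 in the cadmium libraries, an order kept for all values below. Every cadmium library lay below every control library. The log2 difference was -0.70 (SE 0.16, adjusted p = 0.0368), with 6392 to 11493 reads behind each value. That call ended with the replicate number as a block (adjusted p = 0.102), and without control replicate 2 or 3 or any 1 cadmium library, at adjusted p of 0.0624 to 0.143. With no FPKM minimum, where many more genes enter, adjusted p was 0.112. It was kept without control replicate 1 and without control replicate 1 and cadmium replicate 2 together (adjusted p = 0.0492). In the deposited log2 values the difference was -0.89 (limma, adjusted p = 0.00556).

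Gstp2 is a near copy of Gstp1. It stood at 29.3, 47.3 and 42.8 FPKM in control and 28.1, 19.6 and 24.6 in cadmium, again with no overlap, though the highest cadmium library was close to the lowest control. Its log2 difference of -0.69 (SE 0.21) missed the threshold at adjusted p = 0.0817, and was -0.89 with adjusted p = 0.0181 in the deposited log2 values. Of the 150-base stretches of the longest coding Gstp1 transcript, 150 bases being the read length, 41.8% occur unchanged in Gstp2, and 43.4% of Gstp2's occur in Gstp1. A processed pseudogene, Gstp-ps, carries 29.8% of Gstp2's stretches and was at 16.5 ± 3.86 and 9.85 ± 1.78 FPKM (adjusted p = 0.0628). How the authors' counting dealt with such reads is not given in the sources used here, and whether the 3 values share reads was not tested. The Gstp2 to Gstp1 ratio was 0.346 ± 0.043 in control and 0.345 ± 0.0252 in cadmium.

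Gstp3 encodes a diverged pi protein, and 0% of its 150-base stretches occur in another gene's transcript. It measured 7.14, 5.83 and 7.95 FPKM in control and 15.0, 8.03 and 12.6 in cadmium. Cadmium replicate 2 lay just above the highest control, and the other two cadmium libraries well above it. The log2 difference of 0.66 (SE 0.22) had adjusted p = 0.108. Without cadmium replicate 2 it was 0.89 (adjusted p = 0.0299), and without that library and control replicate 1 together 0.91 (adjusted p = 0.0362). The ratio of Gstp3 to Gstp1 within a library, which a factor for the whole library cannot move, was 0.0735, 0.0478 and 0.0649 in control and 0.188, 0.130 and 0.187 in cadmium. Each cadmium ratio was above each control ratio; the ratio was chosen after its values were seen and is a description.

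**Figure D3:**
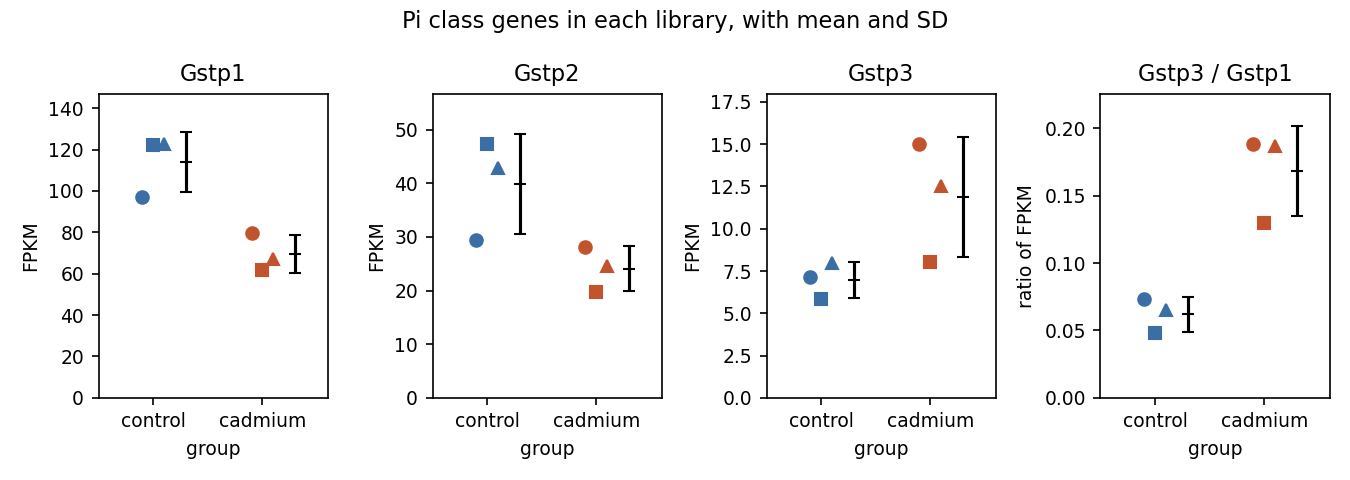
FPKM of Gstp1, Gstp2 and Gstp3, and the ratio of Gstp3 to Gstp1, in each library, with the group mean and SD in black. Gstp1 and Gstp2 are lower in cadmium and Gstp3 is higher, with the ratio at 0.048 to 0.073 in control and 0.130 to 0.188 in cadmium.

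Alpha transferases, which conjugate lipid aldehydes and reduce organic hydroperoxides, had lower means in cadmium in 4 of 4 cases under both scalings, and 0 passed the test. The share of all tested genes with a lower mean was not computed. Their median log2 difference was 0.09 in FPKM and -0.06 in the deposited log2 values. The 4 genes share libraries, so the count describes them and is not a test of the class. Summed over the class they were at 191, 219 and 226 FPKM in control and 155, 140 and 177 in cadmium, groups that do not overlap. Gsta3 on chromosome 1 (21240589 to 21265661), the most abundant alpha gene, carried most of that sum. It measured 146, 140 and 166 FPKM in control and 123, 113 and 120 in cadmium, with a log2 difference of -0.34 (SE 0.13, adjusted p = 0.154). The 95% interval of that difference ran from -0.65 to -0.03. In the deposited log2 values it was called lower at -0.52 (limma, adjusted p = 0.0432), where 4.98% of all tested genes were.

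Gsta4, on chromosome 9, is the alpha enzyme best known for clearing 4-hydroxynonenal, a product of lipid peroxidation. It was at 31.5, 43.6 and 30.1 FPKM in control and 21.3, 19.9 and 34.6 in cadmium, with cadmium replicate 3 above 2 of the 3 controls (adjusted p = 0.241). Gsta1 and Gsta2, the inducible alpha pair of the same chromosome, varied widely within groups. Gsta2 measured 11.1, 25.4 and 25.0 FPKM in control and 8.80, 5.59 and 15.9 in cadmium (log2 difference -0.98, SE 0.46, adjusted p = 0.243). Gsta1 measured 2.30, 10.5 and 5.09 FPKM in control and 2.15, 0.994 and 7.24 in cadmium, and the interval of its difference, -2.51 to 1.07, spans large changes either way. Control replicate 1 was the lowest control and cadmium replicate 2 the lowest cadmium library for both genes. These 2 genes are uncertain, since 73.7% of Gsta1's 150-base stretches and 26.8% of Gsta2's occur in other transcripts, for Gsta1 chiefly those of the predicted gene Gm3776.

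Mu transferases form a row of 7 genes on chromosome 3 between 107895821 and 108044894. Means were higher in cadmium for 6 of 7, also in the deposited log2 values, and 0 passed the test. The share of all tested genes with a higher mean was not computed, so this count too is a description. Gstm1, the dominant mu enzyme of mouse liver, was the exception, at 364, 575 and 554 FPKM in control and 617, 278 and 561 in cadmium (log2 difference -0.09, 95% interval -0.88 to 0.70, adjusted p = 0.897). Its 2 lowest values were those of control replicate 1 and cadmium replicate 2. Without them its log2 difference was 0.06 (adjusted p = 0.867).

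Gstm7 had the smallest p in the mu class, at 13.8, 11.3 and 15.99 FPKM in control and 20.4, 17.9 and 20.5 in cadmium. The groups did not overlap, and the log2 difference was 0.50 (SE 0.14, adjusted p = 0.0677). Gstm4 was at 10.99, 11.4 and 16.6 FPKM in control and 21.4, 16.1 and 21.5 in cadmium, with cadmium replicate 2 inside the control range (log2 difference 0.57, SE 0.18, adjusted p = 0.0967). Both differences were smaller in the deposited log2 values, at 0.35 and 0.43. Gstm5, of low level here, and Gstm6 were at 1.72 to 2.58 and 13.6 to 19.5 FPKM in control and at 2.18 to 3.64 and 16.9 to 28.6 in cadmium (adjusted p = 0.318 and 0.261).

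Gstm2 and Gstm3 were high in 2 of the 3 cadmium libraries. Gstm2 measured 14.5, 14.0 and 18.6 FPKM in control and 28.7, 14.4 and 35.4 in cadmium. Cadmium replicate 2 lay within the control range and the other two far above it, and adjusted p was 0.274. Without cadmium replicate 2 the log2 difference was 0.99 (adjusted p = 0.0312), against 0.62 with all libraries. Gstm3 followed the same order within cadmium, at 48.9, 17.9 and 66.1 FPKM, against 25.9, 20.7 and 44.1 in control (adjusted p = 0.674).

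Markers of bile duct cells moved in the same cadmium libraries. The 8 cholangiocyte markers, 0 of 2 tested called with all libraries, summed to 7.79 to 12.4 FPKM in control and 10.4 to 29.2 in cadmium. Spp1, the most abundant and also a macrophage product, was at 5.29 to 8.64 FPKM in control, and the cadmium libraries in order stood at 21.8, 6.45 and 20.0 FPKM, with Krt19 at 0.874, 0.248 and 0.503. Without control replicate 1 and cadmium replicate 2 together Spp1 was called higher (adjusted p = 0.0111). None of the 8 was at 0 in all 6 libraries. What part this has in the mu values was not tested. With control replicate 1 and cadmium replicate 2 both left out, 4 members were called: Gstp1 and Gstp2 lower, and Gstp3 and Gstm2 higher. In that fit 2.46% of all tested genes were called lower and 4.82% higher.

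**Figure D4:**
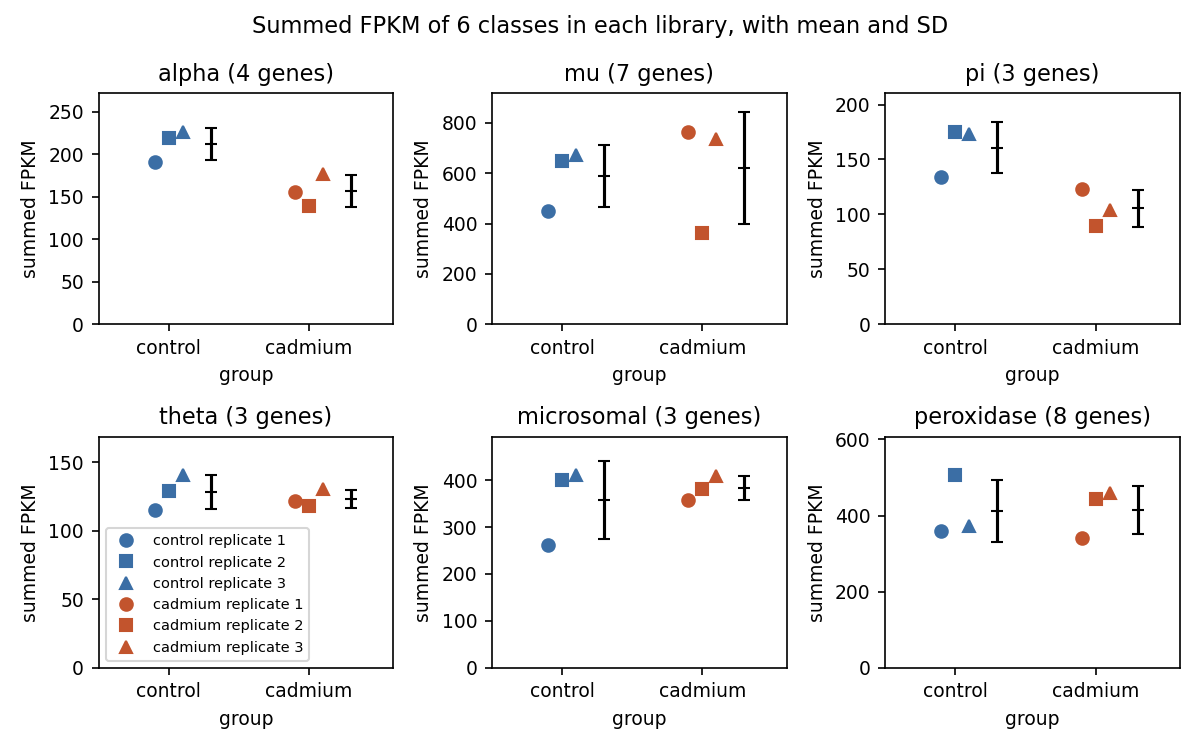
Summed FPKM of the alpha, mu, pi, theta, microsomal and peroxidase genes in each library, with group mean and SD. The alpha and pi sums do not overlap between groups, while the mu sum spans 363 to 764 FPKM within cadmium alone.

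Theta transferases, which act on small halogenated compounds, lie together on chromosome 10 between 75774115 and 75837424. Gstt1, the best studied of them, was steady at 81.5, 85.7 and 89.5 FPKM in control and 88.2, 87.4 and 95.7 in cadmium, with a 95% interval of the log2 difference from -0.20 to 0.36. Gstt2 measured 10.3, 13.3 and 10.5 FPKM in control and 7.24, 10.02 and 9.25 in cadmium, without overlap (log2 difference -0.33, SE 0.15, adjusted p = 0.199). Gstt3 measured 23.8, 29.7 and 40.4 FPKM in control and 26.1, 20.8 and 25.5 in cadmium, where control replicate 1 fell among the cadmium libraries (adjusted p = 0.317).

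Zeta, omega and kappa transferases have other roles. Gstz1 is the maleylacetoacetate isomerase of tyrosine breakdown, Gsto1 reduces arsenic species, and Gstk1 belongs to mitochondria and peroxisomes. Gstz1 was at 45.2 ± 11.4 and 46.9 ± 4.32 FPKM in control and cadmium, Gsto1 at 21.6 ± 1.63 and 24.3 ± 5.13, and Gstk1 at 26.0 ± 1.64 and 29.3 ± 3.75 (adjusted p = 0.837, 0.615 and 0.453). The groups overlapped for each. Gsto2 had 2 to 22 reads in a library and was not tested.

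Microsomal transferases are membrane enzymes of the endoplasmic reticulum, unrelated in sequence to the cytosolic ones. Mgst1, the abundant liver form, measured 254, 387 and 399 FPKM in control and 346, 373 and 397 in cadmium, with control replicate 1 alone below the others (log2 difference 0.13, 95% interval -0.36 to 0.62). Mgst3 ranged from 7.56 to 12.1 FPKM in control and 8.501 to 12.8 in cadmium (adjusted p = 0.687), and Mgst2 had 0 to 9 reads.

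Peroxidases of the glutathione family did not pass the test in either direction, 0 of 4 tested. Gpx1, the cytosolic selenoenzyme that reduces hydrogen peroxide, measured 329, 451 and 327 FPKM in control and 297, 400 and 408 in cadmium. The groups overlapped throughout and the means were 369 ± 71.1 and 369 ± 62.2, with a 95% interval of the log2 difference from -0.49 to 0.49. Gpx4, which reduces lipid peroxides in membranes and guards against ferroptosis, measured 28.8, 51.3 and 40.9 FPKM in control and 41.3, 38.8 and 46.8 in cadmium (95% interval -0.39 to 0.59). Gpx4 is uncertain, since 36.9% of its 150-base stretches also occur in the pseudogene Gpx4-ps2. The same test found 0 of 7 tested genes of selenoprotein synthesis changed, a list that holds the selenium carrier Selenop at 912 to 1042 FPKM in control and 838 to 992 in cadmium.

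Secreted and lowly expressed peroxidases lay near or under the FPKM minimum. Gpx3, the plasma peroxidase, measured 0.541, 0.762 and 1.28 FPKM in control and 1.61, 1.24 and 1.1 in cadmium, with 70 to 191 reads (adjusted p = 0.218). Gpx6 was at 0.346 to 1.35 and 0.714 to 2.43 FPKM (adjusted p = 0.643), and Gpx7, a peroxidase of the endoplasmic reticulum, at 0.558 to 0.883 and 0.653 to 0.924. Gpx8, another of that compartment, had 6, 5 and 15 reads in control (0.0746, 0.0545 and 0.259 FPKM) and 19, 33 and 29 in cadmium (0.346, 0.358 and 0.339 FPKM). All 3 cadmium libraries were above the controls, but the gene was under the minimum and not tested. Gpx2, the peroxidase of gut epithelium, had 0, 1 and 0 reads in control and 5 in each cadmium library, so its controls are within the 3 reads that a count of 0 allows. Gpx5, known from the epididymis, had 17, 0 and 3 reads in control and 23, 35 and 19 in cadmium. For these low genes the FPKM per read varied between libraries.

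Marker sums of matrix-producing cells and macrophages were likewise above control in all 3 cadmium libraries. The 10 stellate and matrix markers summed to 13.8 to 21.1 FPKM in control and 33.1 to 38.1 in cadmium, and 7 of 8 tested were called higher, 4 with the replicate block and 5 without control replicate 1 and cadmium replicate 2 together. Kupffer cell and macrophage markers summed to 40.5 to 69.6 and 82.1 to 94.8 FPKM, with 3 of 9 called higher (Adgre1, Cd68 and Lyz2), 2 with the block and 0 without those 2 libraries (adjusted p = 0.116, 0.0895 and 0.0606). Timd4, a marker of resident Kupffer cells under the FPKM minimum and singled out after its values were seen, lay the other way, at 90, 97 and 46 reads in control and 13, 13 and 17 in cadmium. Means of Vsig4 and Marco were also lower in cadmium, at 3.42 and 2.84 FPKM and at 1.28 and 1.16 FPKM. Their groups overlapped, and 0 of the 9 tested were called lower. Sinusoidal endothelial markers summed to 32.7 to 46.9 and 46.2 to 58.7 FPKM, with 2 of 10 called higher (Stab1 and Lyve1), 0 with the block (adjusted p = 0.0705 and 0.109) and 0 without those 2 libraries (0.131 and 0.0827). Their part in the low peroxidases was not tested. Adipocyte markers, from a tissue in which Gpx3 is abundant, summed to 0.730 to 1.13 and 0.737 to 1.01 FPKM with 3 of 7 listed at 0, and kidney markers to 0.243 to 0.522 and 0.272 to 0.419 with 3 of 7 at 0. T and B cell markers summed to 1.63 to 3.80 and 3.55 to 6.81 FPKM and pancreas markers to 1.18 to 2.05 and 1.48 to 1.77. Only 1 of 8 T and B cell markers and 1 of 7 pancreas markers were tested, with 0 called in either.

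Gamma-glutamyl transferases were led in liver by Ggt6, at 6.23, 6.71 and 8.14 FPKM in control and 10.2, 6.57 and 8.82 in cadmium (log2 difference 0.24, adjusted p = 0.397). Ggt1, the classical enzyme of bile canaliculi and a serum marker of liver injury, had 0 to 9 reads in a library. Ggt5, which acts on leukotrienes, was at 0.328 to 0.486 and 0.356 to 0.514 FPKM, and Ggt7 at 0.0574 to 0.107 and 0.0790 to 0.116. The last 3 were not tested.

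In the authors' deposited table, 6 members have an FDR under 0.05 and all 6 are lower in cadmium: Gstp1 (FDR 1.24e-09), Gstp2 (5.73e-06), Gsta3 (6.46e-04), Gstt2 (0.0109), Gstt3 (0.0217) and Gsta4 (0.0262). That is 16.7% of the 36 members, where the authors' deposited table has 6.87% of its 34352 genes at that FDR, 3.15% lower and 3.72% higher. These sets are unlike in level. FPKM of at least 1 in at least 3 libraries was reached by 27 of the 36 members but by 9908 of the 34352 genes. The share of such genes at that FDR was not computed, so these percentages do not measure an excess of lowered members. The authors' deposited table gives log2 differences of -0.89 for Gstp1, -0.89 for Gstp2, -0.52 for Gsta3 and -0.68 for Gsta4. Its test is not named in the sources used here. The same log2 values tested with limma gave 3 members lower (Gstp1, Gstp2 and Gsta3) and 0 higher, where 4.98% of tested genes were lower and 3.85% higher.

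No gene of the lists that supply, recycle or export glutathione was called with all libraries on log2(FPKM + 1). Of the synthesis and cysteine supply genes 0 of 8 tested passed in either direction, and the methionine cycle enzymes Gnmt and Mat1a, the most abundant, were at 806 to 993 and 611 to 871 FPKM in control and at 836 to 921 and 529 to 708 in cadmium. Of the breakdown genes 0 of 4 passed, with the aminopeptidases Lap3 and Anpep highest at 37.7 to 44.6 and 22.0 to 30.1 FPKM in control and 41.2 to 45.8 and 21.7 to 23.6 in cadmium. Of the reductases, glutaredoxins and glyoxalases 0 of 10 passed, with Hagh, which frees glutathione from its lactoyl form, at 55.6 to 59.2 and 48.7 to 52.1 FPKM, and Esd at 27.6 to 31.9 and 27.96 to 31.1. Of other glutathione-linked transferases and pumps 0 of 3 passed. The canalicular pump Abcc2, which exports glutathione conjugates into bile, was at 54.1, 63.1 and 60.9 FPKM in control and 51.7, 45.6 and 48.2 in cadmium (adjusted p = 0.181), and Abcc3 at 53.5 to 68.0 and 53.4 to 70.9. In the deposited log2 values Abcc2 was called lower (-0.47, adjusted p = 0.0494), as was Ahcy of the synthesis list, the hydrolase of S-adenosylhomocysteine (-0.71, adjusted p = 0.0400). Without control replicate 1 and cadmium replicate 2 together neither was called, and Glrx, a glutaredoxin, was lower (-0.50, adjusted p = 0.0383).

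Among 12 receptors and factors known to act on these genes, 1 rose and 1 fell, both small MAF proteins. Over all tested genes 7.86% were called higher and 1.82% lower, so these are results about single genes, not about the list. The count moved with the scaling and the libraries. In the deposited log2 values 1 was higher and 4 were lower, with Bach1, Nr1i2 and Nr1i3 joining Maff (adjusted p = 0.0325, 0.0135 and 0.0293). There 3.85% of all tested genes were higher and 4.98% lower. Without control replicate 1 and cadmium replicate 2 together 1 was higher and 2 were lower, Nr1i3 and Ahr (0.0457 and 0.0362). In that fit 4.82% of all tested genes were higher and 2.46% lower. With the block 1 was higher and 0 were lower, where 184 of 9908 tested genes were higher and 64 lower. Mafk rose from 2.30, 1.61 and 1.86 FPKM to 4.31, 3.73 and 4.45 (log2 difference 0.83, SE 0.11, adjusted p = 0.00994), which the block kept (0.0398) but leaving out cadmium replicate 3 (0.0510) or the FPKM minimum (0.0699) did not. Maff fell from 3.59, 3.80 and 2.79 FPKM to 1.85, 2.01 and 1.82 (log2 difference -0.60, SE 0.10, adjusted p = 0.0190). The call for Maff ended with the block (adjusted p = 0.0516), without cadmium replicate 1 or 3 (0.0656 and 0.0865), with no FPKM minimum (0.0911), and without control replicate 1 and cadmium replicate 2 together (0.0552). Nfe2l2, which encodes NRF2, was at 6.26 ± 1.56 and 7.42 ± 1.3 FPKM (adjusted p = 0.487), and its inhibitor Keap1, like Nfe2l2 chosen for its role after the values were seen, at 8.93 ± 0.93 and 8.55 ± 0.62 (adjusted p = 0.784).

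Letters of the antioxidant response core, TGACNNNGC, were searched on both strands in the 300-base RefSeq promoter windows (250 bases before to 50 after the start). Windows existed for 33 members, and 5 of these (15.2%) held at least 1 match, against 14.0% of all genes with a window. The 5 were Gsta3, Gstm5, Gstm7, Mgst1 and Ggt1. The match of Gsta3 starts 121 bases before its start site and that of Gstm7 129 bases before, both on the gene's strand. No pi window held these letters, and TGAGTCA in the pi windows overlaps no such match. In the Gstp1 and Gstp2 windows TGAGTCA is followed by gc, which differs from TGACNNNGC only by G in place of C. The form with G was not searched, so the absence holds for the letters TGACNNNGC alone.

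**Figure D5:**
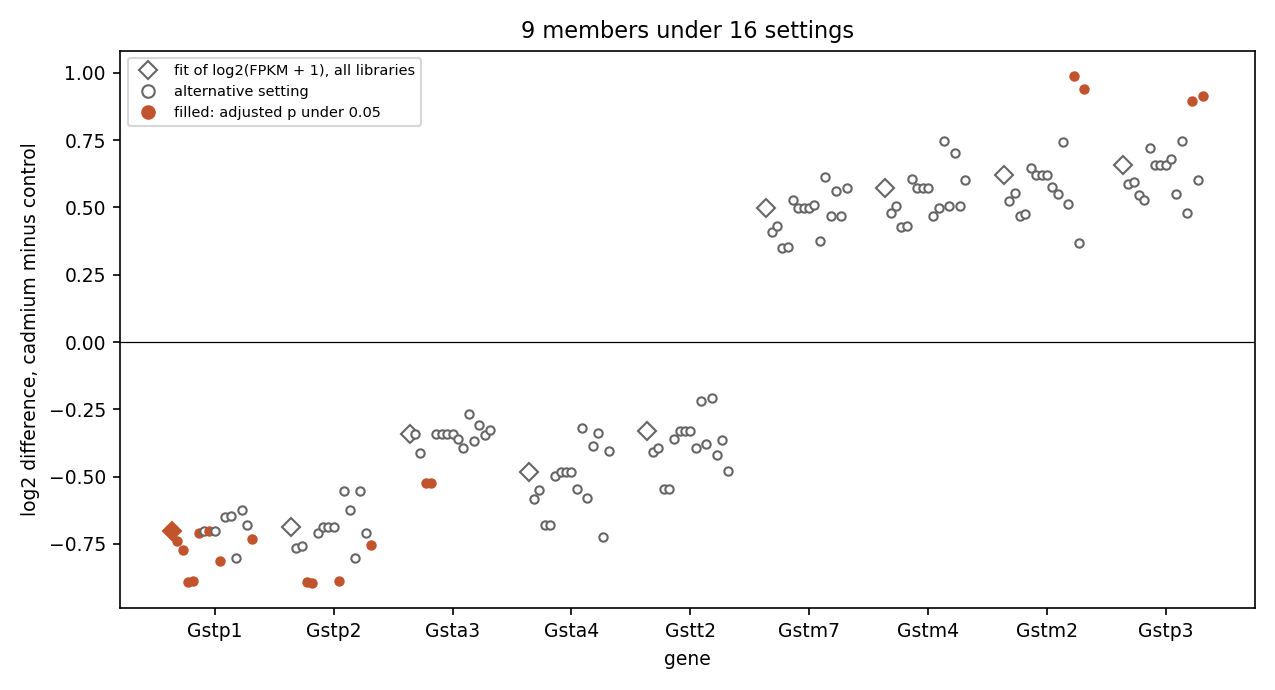
Log2 difference, cadmium minus control, of 9 members under 16 settings (diamond: all libraries on log2(FPKM + 1); circles: alternatives; filled: adjusted p under 0.05). All 9 keep their direction in every setting shown, and Gstp1 is filled in the most settings.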

How the data were processed

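Liver RNA not bound by an m6A antibody was measured in 3 control and 3 cadmium libraries of 42115960 to 68587128 recovered reads, built as 150-base pairs per the labels' protocols. Per the submitters' processing notes, mm10 was used with STAR 2.7.1a, cutadapt 1.1.8, DESeq2, MACS2 2.1.1 and SAMtools 1.3.1, whose roles are not given there. The authors deposited FPKM for 55335 genes. They also deposited log2 values for 34352 genes with group means, log2 fold changes, p-values and FDR, whose test is not given in the sources used here. Undoing log2 and subtracting 1 gave whole multiples of 1 step per library (100% within 0.05 read), which are the recovered reads.

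The test was limma 3.58.1 (R 4.3.3), two-sided, applied to log2(FPKM + 1) with a mean-dependent variance prior and robust shrinkage. Genes entered if 3 or more libraries reached FPKM 1, and Benjamini-Hochberg adjusted p under 0.05 made a call. Fold changes on this scale understate those of low genes. The fit was also run on simulated data with the same dispersion for every gene and no library that stood apart. That run checked the fit only and lends no weight to the calls made here. Intervals and read counts cover the spread between libraries or counting error only. Other scalings, pseudocounts, filters, voom on recovered reads, the replicate block and leaving out libraries were tried.

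The labels' batch equals the replicate number, and since a batch consists of 1 library of either group, the samples are paired by label. Deviations of same-numbered libraries from their group means correlated at -0.21, -0.23 and -0.02 across genes. Members, lists and tests were chosen with earlier results of these data known. The naming rule gives values by library for called members and for up to 3 further members of each class by mean FPKM, and ranges for members under FPKM 1 in at least 4 libraries. Values by library for other members were added after they were seen. Of each pathway list it names the called genes or the 2 most abundant. Other pathway and marker genes were named after their values were seen, where another setting moved their call or a result turned on them. Coordinates are from GENCODE M21, promoters from RefSeq GRCm38.p6, aligned with Biopython 1.88.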

Additional observations from a re-analysis of the deposited data

How the results depend on the processing

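All calls below are from limma. Over all genes 959 were called, against 37 with no FPKM minimum (34351 genes tested), 279 with a minimum of 5 (3922 tested), 248 with the replicate block and 101 to 781 when 1 library was left out, lowest without cadmium replicate 3. Of the members, where 1 was called, 3 were called with the deposited log2 scale, 3 by voom on recovered reads, 0 with no FPKM minimum, 0 with the replicate block, 0 to 2 when 1 library was left out and 4 without control replicate 1 and cadmium replicate 2 together. Among members and named pathway genes the block changed the calls of Gstp1 and Maff only, and calls it ended among cell type markers stand with those lists. Under upper quartile scaling the ratio of summed FPKM between groups moved by less than the spread between libraries for every class. Leaving out 1 library cannot decide this, since the mean of 3 libraries then always moves by less than their SD.

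Directions that turned belonged to members and named genes whose main difference was not called. In the deposited log2 values these were -0.10 for Gstt1, -0.098 for Gstz1, -0.029 for Gsto1, -0.0097 for Gstk1, -0.052 for Mgst1, -0.018 for Mgst3, -0.078 for Gpx4, -0.072 for Lap3, -0.17 for Esd, -0.12 for Abcc3, -0.082 for Sephs2, and with voom -0.10 for Gstt1, -0.10 for Gstz1, -0.034 for Gsto1, -0.012 for Gstk1, -0.058 for Mgst1, -0.021 for Mgst3, -0.081 for Gpx4, -0.076 for Lap3, -0.17 for Esd, -0.12 for Abcc3, -0.085 for Sephs2. Quantile normalization gave -0.076 for Esd, and upper quartile scaling -0.054 for Esd, -0.0068 for Abcc3. Without control replicate 1 and cadmium replicate 2 together they were 0.058 for Gstm1, -0.083 for Gstz1, -0.086 for Mgst1, -0.059 for Gpx4, -0.061 for Esd, -0.11 for Abcc3. With 1 library left out differences ran over -0.31 to 0.27 for Gstm1, -0.14 to 0.22 for Gstz1, -0.082 to 0.24 for Mgst1, -0.022 to 0.32 for Mgst3, -0.082 to 0.15 for Gpx1, -0.12 to 0.29 for Gpx4, -0.0021 to 0.50 for Gpx6, -0.20 to 0.019 for Anpep, -0.029 to 0.071 for Esd, -0.033 to 0.19 for Abcc3. The cause was not tested. The median of all tested genes lay at 0.09 in FPKM and at -0.06 in the deposited log2 values, a shift larger than most of these differences. The reads of Gpx2, Ggt1, Mgst2 and Gsto2 are too few for a statement on a difference.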
